A study of Mus musculus with 6 samples.

Results

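The genes described here encode the proteins that dock, hold and fuse secretory vesicles: synaptotagmins, SNARE proteins of the syntaxin, Vamp and Snap families, synapsins, complexins and the Rab3 GTPases. They were chosen by name from the 24062 gene symbols counted in RNA from mouse optic nerve, and the rule found 60. The data comprise 6 libraries. The 3 mutant libraries are labelled PlpCreERT2, a tamoxifen-inducible Cre recombinase active mainly in oligodendrocytes, together with Nf1flox/flox. Control library 1 is labelled Nf1flox/flox and control libraries 2 and 3 Nf1flox/+, with no Cre named for any of them. Tamoxifen was given to adults over 2 months old, and nerves were taken 1 month later. The labels give no sex and no link from library to animal, so p-values here measure the spread between libraries, which may be technical in part.

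Vesicle fusion is carried out by SNARE proteins that zip together across the gap between vesicle and target membrane. At nerve terminals Vamp2 on the vesicle pairs with a syntaxin such as Stx1a and with Snap25 on the plasma membrane, complexins clamp the assembled complex, and the calcium sensor Syt1 releases the clamp. Synapsins tether the reserve pool of vesicles, and Rab3 proteins help vesicles reach the release site. Glia and other cells of the nerve use broadly expressed relatives such as Vamp3, Snap23 and Stx4a for secretion, while the optic nerve itself holds the axons of retinal ganglion cells but not neuronal cell bodies.

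Total counts per library ranged from 13555756 to 23662698. Nf1 did not separate the groups, with 394, 400.0 and 337 CPM (counts scaled to a common library total by edgeR's TMM method) in controls and 304, 226 and 433 CPM in mutants, and a count summed over all exons does not show a deletion of some of them. Myelin, astrocyte and fibroblast transcripts were found in all libraries, but whether they set optic nerve apart from other tissue was not tested. The summed level of 8 myelin markers was 24728 to 25582 CPM in controls and 5159, 32720 and 4486 CPM in mutant libraries 1, 2 and 3. Mutant library 2 thus stood with the controls in myelin transcripts and apart from the other mutant libraries. Summed CPM of 11 neuron markers was 686 to 976 in controls and 1521 to 4122 in mutants, and that of 9 markers of striatal projection neurons, cells of the forebrain, was 111 to 167 in controls and 1378 to 2222 in mutants. None of the markers in these 3 lists was at 0 in any library. The part of these cell types in the results that follow was not tested, and in bulk RNA fewer cells of a type cannot be told apart from less RNA per cell.

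Of the 60 members 58 had enough counts to be tested with edgeR's quasi-likelihood test. Of the tested members 6 rose, among them the complexins Cplx1, Cplx2 and Cplx3 and the synaptotagmins Syt1 and Syt6. Cplx3 passed the filter on low counts only through the mutant group, so it could enter the test only as a rise. Only 1 member fell, Sytl4, a Rab27-binding relative of the synaptotagmins. These calls amount to 10.3% and 1.72% of the tested members, where 2.95% of all 16315 genes tested were called higher and 0.337% lower at an adjusted p under 0.05. The mutant libraries all lay above the control libraries for 17 members and all below for 5, or 29.3% and 8.62%, against 12.5% and 11.5% of all genes. Fitted fold changes were positive for 39 of 58 members (67.2%, against 49.9% of all genes), and the median log2 fold change was 0.50 against 0.00 over all genes.

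**Figure D1:**
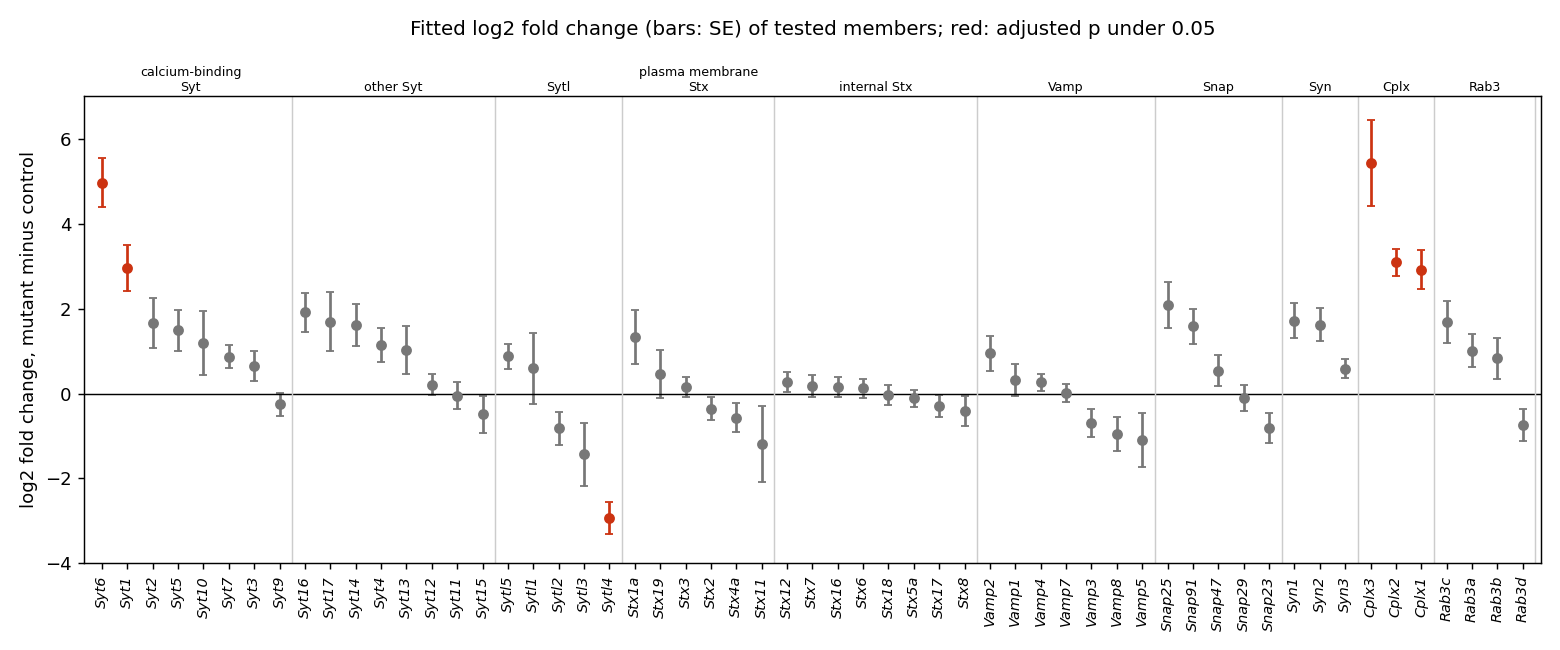
Fitted log2 fold change of mutant minus control (vertical axis, bars show the SE) for the tested members reported here, grouped by role; red points passed at an adjusted p under 0.05. The 3 tested complexins, Syt6 and Syt1 lie above 0 and Sytl4 lies at -2.94.

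Cplx1, Cplx2 and Cplx3 rose, and they were the complexins with enough counts to be tested. Cplx3 passed the filter on low counts only through the mutant group, and Cplx4, with 17 counts in controls and 0 in mutants, did not pass it. Cplx2 (chromosome 13, 54371349 to 54383917, plus strand) had 56.8, 70.1 and 84.1 CPM in controls and 777, 581 and 438 CPM in mutants. All 3 mutant libraries were well above the controls, library 2 included. The log2 fold change was 3.09 ± 0.31 SE (adjusted p 0.00203 by edgeR), and Cplx2 was the only member still called without any single library (adjusted p up to 0.0335). Cplx1 (chromosome 5, 108518554 to 108550027, minus strand) had 23.1, 19.3 and 20.0 CPM in controls against 215, 58.5 and 199 CPM in mutants. Its groups did not overlap, but mutant library 2 lay much nearer to the controls, and the log2 fold change was 2.92 ± 0.45 SE (adjusted p 0.0133 by edgeR). The call of Cplx1 was lost without control library 1, 2 or 3 (adjusted p 0.101, 0.0909 and 0.0856). Both proteins clamp SNARE complexes in brain neurons.

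Cplx3 and Cplx4 are the complexins best known from the ribbon synapses of the retina. Cplx3 was nearly silent in controls, with 0, 1 and 1 counts, and had 49, 16 and 10 counts in mutants. The ratio of the summed, scaled counts was 55.6, with an exact 95% interval of 14.9 to 468 that covers counting error only, and edgeR gave an adjusted p of 0.0265. That call was lost without any 1 of the 3 controls or mutant library 1 (adjusted p 0.125 to 0.166), and at a minimum count of 50 the gene was not tested. Cplx4 was too low to test, with 2, 0 and 15 counts in controls and 0 in each mutant library, where 0 allows up to 3 counts over the group. The photoreceptor marker list summed to 2.61 to 4.27 CPM in controls and 3.51 to 7.26 CPM in mutants. Rcvrn of that list, which encodes the calcium sensor recoverin, had 2, 2 and 1 counts in controls and 21, 24 and 21 counts in mutants. Its log2 fold change was 4.20 (edgeR adjusted p 0.0242). Like Cplx3, it passed the filter on low counts only through the mutant group, so it could enter the test only as a rise. Gnat1 of the same list was at 0 in control library 1 and mutant library 2.

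Synaptotagmins that bind calcium had a median log2 fold change of 1.34, with 7 of 8 positive and 2 called. Over all genes tested, 49.9% were positive and 2.95% were called higher. Syt1, the sensor for fast synchronous release (chromosome 10, 108497650 to 109010975, minus strand), had 93.5, 78.1 and 99.5 CPM in controls. In mutant libraries 1, 2 and 3 it had 1056, 195 and 848 CPM, so that the groups did not overlap and library 2 was the lowest. The log2 fold change was 2.95 ± 0.55 SE (adjusted p 0.0260 by edgeR), which was lost without any single library other than mutant library 2 (adjusted p 0.0845 to 0.164). Syt6, a synaptotagmin studied mainly for its part in the acrosome reaction of sperm, had the largest fitted fold change of the members after Cplx3. It lies on chromosome 3 (103575282 to 103645567, plus strand) and had 6.29, 3.40 and 5.93 CPM in controls against 147, 60.6 and 279 CPM in mutants. The fitted log2 difference was 4.96 ± 0.58 SE (adjusted p 0.00451 by edgeR), and the call was lost without control library 1 (adjusted p 0.0562). An exon of Syt6 overlaps Atg4a on the opposite strand, and counting ignored strand, so its level is uncertain to that extent.

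The other calcium-binding synaptotagmins did not pass. Syt2, the fast sensor of hindbrain and neuromuscular synapses, had 0.991, 1.20 and 2.24 CPM in controls and 8.20, 3.25 and 2.58 CPM in mutants (log2 difference 1.66, adjusted p 0.176 by edgeR). Syt7, which serves slow release and membrane repair, had 45.8 to 64.6 CPM in controls and 71.0 to 126 CPM in mutants (log2 difference 0.86, adjusted p 0.131 by edgeR). Syt5 had 12.5, 19.4 and 41.7 CPM in controls and 107, 45.9 and 53.4 CPM in mutants. In all 3 of these genes the groups did not overlap, although the gap was narrow in each. Syt5 was highest among controls in library 3, which also had the highest summed pituitary hormone markers, 145 CPM against 11.6 and 22.7 CPM in control libraries 2 and 1. Of that sum Cga gave 79.7 CPM and Pomc 38.3 CPM. Another marker of the list, Tshb, was called lower in mutants (log2 difference -2.15, adjusted p 0.0313 by edgeR). The part of pituitary tissue in the Syt5 values was not tested. Syt10 went in opposite directions among mutants, with 37.0, 4.91 and 90.4 CPM against 18.1 to 21.7 CPM in controls. Syt3 and Syt9, the latter a sensor related to Syt1, had log2 fold changes of 0.64 and -0.25.

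**Figure D2:**
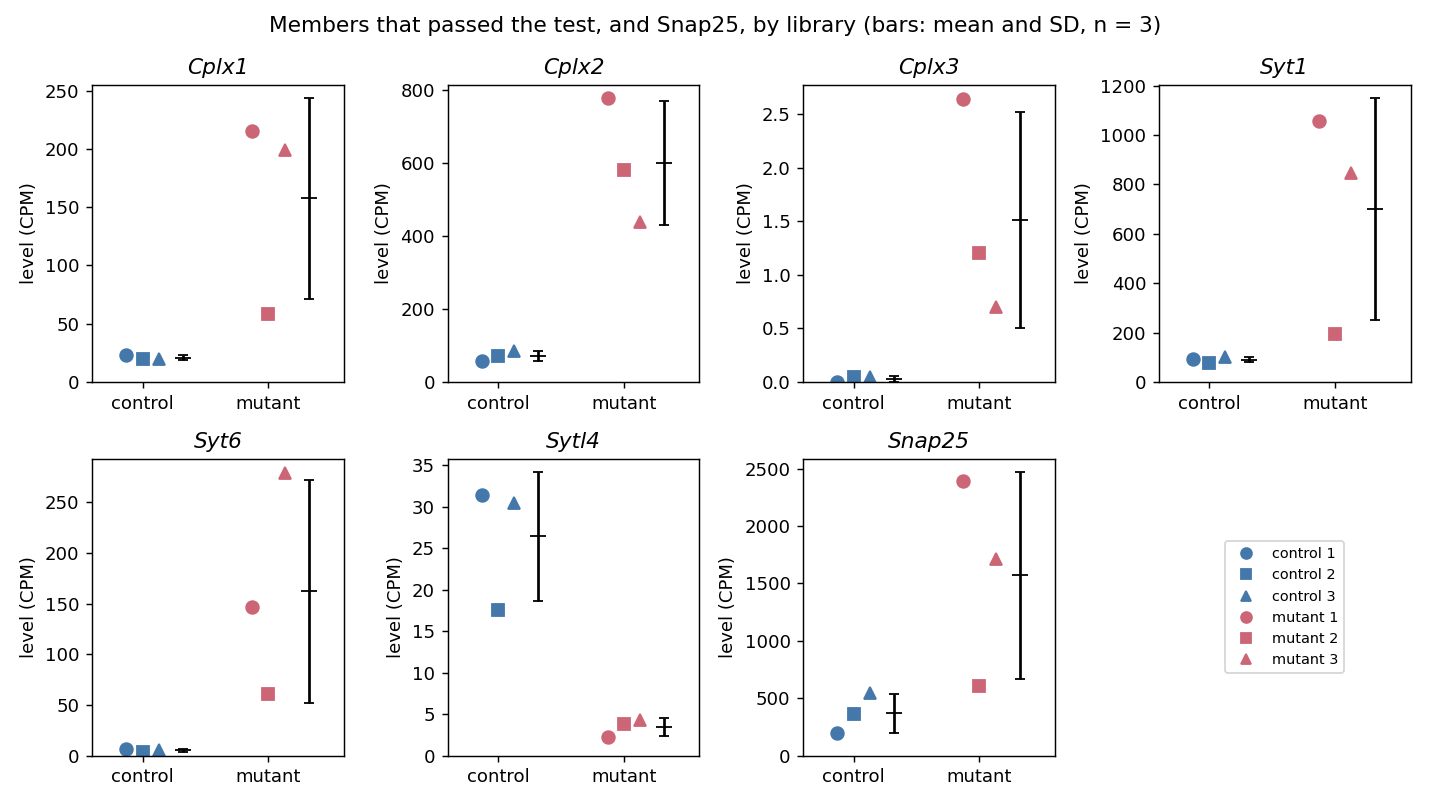
Level in CPM (vertical axis, from 0) of 6 members that passed and of Snap25 in each library; black marks show the mean and SD of 3 libraries. Mutant library 2 (square) is the lowest mutant library for Cplx1, Syt1, Syt6 and Snap25, but not for Cplx2, Cplx3 or Sytl4.

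Synaptotagmins that lack calcium binding, or for which it is not settled, had 0 of 8 tested members called by edgeR. An unadjusted p under 0.05 was found for 4 of the 8, and for 19.2% of all genes. The most abundant, Syt11, which regulates vesicle traffic in neurons and glia, had 606, 630 and 667 CPM in controls and 612, 847 and 381 CPM in mutants. Its mutant values spread on both sides of the controls, with a log2 fold change of -0.05 (SE 0.32). Syt16 had 8.71 to 13.8 CPM in controls and 71.3, 18.9 and 33.8 CPM in mutants without overlap (log2 difference 1.91, adjusted p 0.0613 by edgeR). Syt4, a synaptotagmin of dense-core vesicles, had 64.8, 52.6 and 91.2 CPM in controls. It had 199, 67.8 and 195 CPM in mutants, where library 2 fell within the control range. Syt14 and Syt17 had log2 fold changes of 1.62 and 1.69 with mutant library 2 at 5.52 and 5.21 CPM, inside the control ranges. Syt13, Syt12 and Syt15 had log2 fold changes of 1.03, 0.21 and -0.49. Syt8 was not tested, with 0, 6 and 9 counts in controls and 0, 0 and 23 counts in mutants.

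The synaptotagmin-like proteins, which bind Rab27 on secretory granules, had a median log2 fold change of -0.82. Sytl4, also called granuphilin and known for docking insulin granules (chromosome X, 133936385 to 133981812, minus strand), had 31.4, 17.5 and 30.4 CPM in controls. Mutant libraries 1, 2 and 3 had 2.21, 3.85 and 4.33 CPM, all far below the lowest control and close to each other. The log2 fold change was -2.94 ± 0.38 SE (adjusted p 0.00613 by edgeR), and the call was lost without control library 1 (log2 fold change -2.78, adjusted p 0.0604). Sytl4 is X-linked, and the X-inactivation transcript Xist had 2.87, 3016 and 1.41 CPM in controls and 2075 to 3611 CPM in mutants. Control library 2, alone among controls in high Xist, was the control with the least Sytl4. With Xist in the model Sytl4 no longer passed (log2 difference -2.39, adjusted p 0.185 by edgeR), but neither did any other gene. High Xist is largely confounded with the groups, and the part of sex in the Sytl4 values was not tested. Platelet markers, from cells that also store granules, summed to 15.1 to 21.1 CPM in controls and 4.05 to 10.4 CPM in mutants, and none of the 4 passed. Gp9 of that list was at 0 in control library 3 and mutant libraries 2 and 3, and the part of platelets in the Sytl4 values was not tested.

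Its relatives differed in both directions without passing. Sytl2, which is found in many secretory cells, had 57.7 to 91.6 CPM in controls and 36.4, 73.6 and 25.6 CPM in mutants, where library 2 lay inside the control range. Sytl3 had 3.23 to 4.15 CPM in controls against 0.594, 3.10 and 0.419 CPM in mutants, with mutant library 2 just below the controls. Sytl5, which is also X-linked, lay higher in mutants, with 16.5, 27.9 and 32.2 CPM in controls and 43.9, 39.8 and 57.1 CPM in mutants (log2 difference 0.88, adjusted p 0.157 by edgeR). Sytl1 had 0.644, 1.12 and 1.78 CPM in controls and 0.863, 4.08 and 0.488 CPM in mutants, with overlap. Rab27b, the partner GTPase listed with the exocyst, had 11.9 to 16.9 CPM in controls and 40.4, 11.9 and 40.0 CPM in mutants (log2 difference 1.15, adjusted p 0.196 by edgeR).

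Upstream sequences of 6 members are shown because Cplx1, Cplx3, Syt1, Syt6 and Sytl4 passed, Syn1 carries 2 of the motifs named below, and their deposited starts coincide with a RefSeq start, so that the letters sit at the counted gene. Each line gives the 250 bases before the start, 5′ to 3′ on the gene's strand (RefSeq, GRCm38.p6), and capitals mark matches to the motifs named after them.
Cplx1 (chr5:108550028-108550277, minus strand): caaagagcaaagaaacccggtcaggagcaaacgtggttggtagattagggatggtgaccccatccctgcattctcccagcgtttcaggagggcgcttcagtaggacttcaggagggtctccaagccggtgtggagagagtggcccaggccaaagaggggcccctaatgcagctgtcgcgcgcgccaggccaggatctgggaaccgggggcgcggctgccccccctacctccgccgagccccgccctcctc
Cplx3 (chr9:57606282-57606531, minus strand): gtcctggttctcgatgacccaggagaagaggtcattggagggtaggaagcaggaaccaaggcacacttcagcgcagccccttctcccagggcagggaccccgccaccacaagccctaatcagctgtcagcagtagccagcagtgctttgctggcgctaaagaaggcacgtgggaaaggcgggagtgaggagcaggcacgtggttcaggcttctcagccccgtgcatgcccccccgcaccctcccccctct
Syt1 (chr10:109010976-109011225, minus strand): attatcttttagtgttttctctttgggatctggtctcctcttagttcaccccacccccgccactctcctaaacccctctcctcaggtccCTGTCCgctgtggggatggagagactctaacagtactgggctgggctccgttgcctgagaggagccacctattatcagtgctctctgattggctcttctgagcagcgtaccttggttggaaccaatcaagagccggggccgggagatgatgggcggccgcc
Syt6 (chr3:103575032-103575281, plus strand): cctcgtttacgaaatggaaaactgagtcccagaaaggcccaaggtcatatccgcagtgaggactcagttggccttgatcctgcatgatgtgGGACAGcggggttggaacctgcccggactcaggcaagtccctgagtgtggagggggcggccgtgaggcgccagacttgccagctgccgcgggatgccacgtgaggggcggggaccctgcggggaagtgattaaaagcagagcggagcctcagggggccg
Syn1 (chrX:20920919-20921168, minus strand): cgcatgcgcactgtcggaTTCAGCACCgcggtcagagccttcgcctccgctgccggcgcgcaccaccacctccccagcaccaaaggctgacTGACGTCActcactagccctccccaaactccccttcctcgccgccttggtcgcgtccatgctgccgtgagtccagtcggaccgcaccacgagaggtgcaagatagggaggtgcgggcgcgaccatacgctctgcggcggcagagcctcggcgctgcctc
Sytl4 (chrX:133981813-133982062, minus strand): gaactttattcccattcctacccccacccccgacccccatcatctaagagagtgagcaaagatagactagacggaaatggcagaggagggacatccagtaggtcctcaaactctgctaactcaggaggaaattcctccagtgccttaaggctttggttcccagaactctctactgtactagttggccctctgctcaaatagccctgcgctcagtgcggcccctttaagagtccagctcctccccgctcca

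The motifs were searched on both strands in the same 250-base window of 35 members whose deposited start matched a RefSeq start, out of 46 members with a listed promoter. Syn1 alone held the left part of RE1, the element bound by the neuronal repressor Rest (TTCAGCACC), and the cyclic AMP response element (TGACGTCA). Those motifs occur in 0.301% and 1.55% of all 32851 listed promoters. The right part of RE1 (GGACAG) was found in 5 of the 35 (Stx2, Stx19, Syt1, Syt6 and Syt11), or 14.3% against 18.7% of all promoters. The TATA box (TATAAA) was in 2 of the 35, Rab3b and Stx3, against 12.4% of all promoters. An AP-1 site (TGACTCA) and an Egr site (GCGTGGGCG) were in 0 of the 35, against 4.46% and 0.536% of all. The dinucleotide CG occurred 15 times in the Cplx1 window and in that of Syt6, 9 times in that of Cplx3, 27 times in that of Syn1, 8 times in that of Syt1 and 5 times in that of Sytl4, with a median of 6 over all promoters.

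Syntaxins of the plasma membrane form the target membrane side of the fusion complex. Stx1a, a neuronal syntaxin, had 2.78 to 5.27 CPM in controls and 18.8, 2.57 and 8.09 CPM in mutants (log2 difference 1.34, adjusted p 0.296 by edgeR). Stx4a, a syntaxin of constitutive exocytosis, had 75.1, 76.6 and 113 CPM in controls and 46.2, 91.7 and 40.5 CPM in mutants (log2 difference -0.57, adjusted p 0.405 by edgeR). Stx2 and Stx3 had log2 fold changes of -0.36 and 0.16. Stx11 and Stx19, which carry lipid anchors in place of a membrane-spanning helix, were below 2 CPM in every library, with log2 fold changes of -1.19 and 0.46.

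The 8 syntaxins of the Golgi, endosomes and endoplasmic reticulum had small fold changes. By edgeR 0 of 8 were called, and 0 had an unadjusted p under 0.05, where 19.2% of all genes did. Log2 fold changes ranged from -0.42 for Stx8 to 0.27 for Stx12. Stx12, an endosomal syntaxin and the most abundant of them per kb of exon, had 144, 146 and 157 CPM in controls and 191, 136 and 213 CPM in mutants. Stx5a, which serves transport between endoplasmic reticulum and Golgi, had 47.9, 49.6 and 48.0 CPM in controls and 40.4, 46.2 and 47.8 CPM in mutants. Its mutant values lay just below all controls, yet the log2 fold change was -0.11 (SE 0.20). Stx17, the syntaxin of autophagosomes, had a log2 fold change of -0.29, and Stx7, Stx16, Stx6 and Stx18 lay between -0.03 and 0.17.

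Vesicle SNAREs divided by member, with 0 of 7 called by edgeR. Of the 7, 2 (Vamp2 and Vamp8) had an unadjusted p under 0.05, where 19.2% of all genes did. Vamp2, the vesicle SNARE of nerve terminals, had 238, 166 and 141 CPM in controls and 474, 159 and 418 CPM in mutants, with mutant library 2 inside the control range (log2 difference 0.95, adjusted p 0.247 by edgeR). Vamp3, its broadly expressed counterpart, had 189, 157 and 160 CPM in controls and 61.0, 156 and 97.1 CPM in mutants, so that mutant library 2 was only just below the lowest control (log2 difference -0.69, adjusted p 0.301 by edgeR). Vamp8, a SNARE of endosomes and secretory granules, had 21.7 to 31.0 CPM in controls and 7.77 to 23.0 CPM in mutants. Vamp5, best known from muscle and endothelium, had 12.7 to 14.4 CPM in controls and 2.64, 14.4 and 2.44 CPM in mutants. Mutant library 2 lay within the control range for Vamp8 and just above the highest control for Vamp5. Markers of the endothelium summed to 172 to 196 CPM in controls and 58.9, 124 and 61.4 CPM in mutants. Vamp4 and Vamp7, which act at the Golgi and at lysosomes, had log2 fold changes of 0.26 and 0.01, and Vamp1 had 0.31.

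Among the Snap genes 0 of 5 were called by edgeR. Snap25 had 200.3, 361 and 543 CPM in controls and 2395, 606 and 1708 CPM in mutants. The groups did not overlap, but mutant library 2 was close to control library 3, and the log2 fold change of 2.09 (SE 0.54) gave an edgeR adjusted p of 0.0761. Snap23, its counterpart outside neurons, had 61.8, 103 and 117 CPM in controls and 40.1, 81.8 and 39.6 CPM in mutants (log2 difference -0.81, adjusted p 0.262 by edgeR). Snap91, which despite its name is the clathrin adaptor AP180 and no SNARE, had 68.2 to 89.2 CPM in controls and 282, 90.5 and 316 CPM in mutants, the second of which barely exceeded the controls (log2 difference 1.58, adjusted p 0.0830 by edgeR). Snap47 and Snap29, SNAREs of internal membranes, had log2 fold changes of 0.54 and -0.10.

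Synapsins were higher in each mutant library than in any control, without passing. Syn1 (on the X chromosome) had 64.7, 55.8 and 68.4 CPM in controls and 310, 86.5 and 222 CPM in mutants, with an edgeR adjusted p of 0.0617. Syn2 had 60.1 to 73.6 CPM in controls and 264, 87.7 and 267 CPM in mutants, with an edgeR adjusted p of 0.0635. Their log2 fold changes were 1.71 (SE 0.41) and 1.63 (SE 0.40), and that of Syn3, a synapsin expressed early in development, was 0.58 (SE 0.22). Exons of Syn1 overlap Araf on the other strand.

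Rab3 GTPases had 0 of 4 called by edgeR and, unlike the synapsins, groups that overlapped in all 4. Rab3c, the member with the largest fold change, had 132, 123 and 181 CPM in controls and 695, 151 and 551 CPM in mutants (log2 difference 1.68, adjusted p 0.108 by edgeR). Rab3a, the main Rab3 of synaptic vesicles, had 66.4, 41.0 and 41.1 CPM in controls and 129, 47.4 and 122 CPM in mutants. For both, mutant library 2 lay among the controls. Rab3b, which is found in brain and pituitary, had 18.6, 20.9 and 43.4 CPM in controls and 66.5, 20.0 and 60.6 CPM in mutants. Rab3d, a Rab3 of exocrine and immune secretory cells, had 5.85 to 11.7 CPM in controls and 4.26 to 6.27 CPM in mutants (log2 fold change -0.74).

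**Figure D3:**
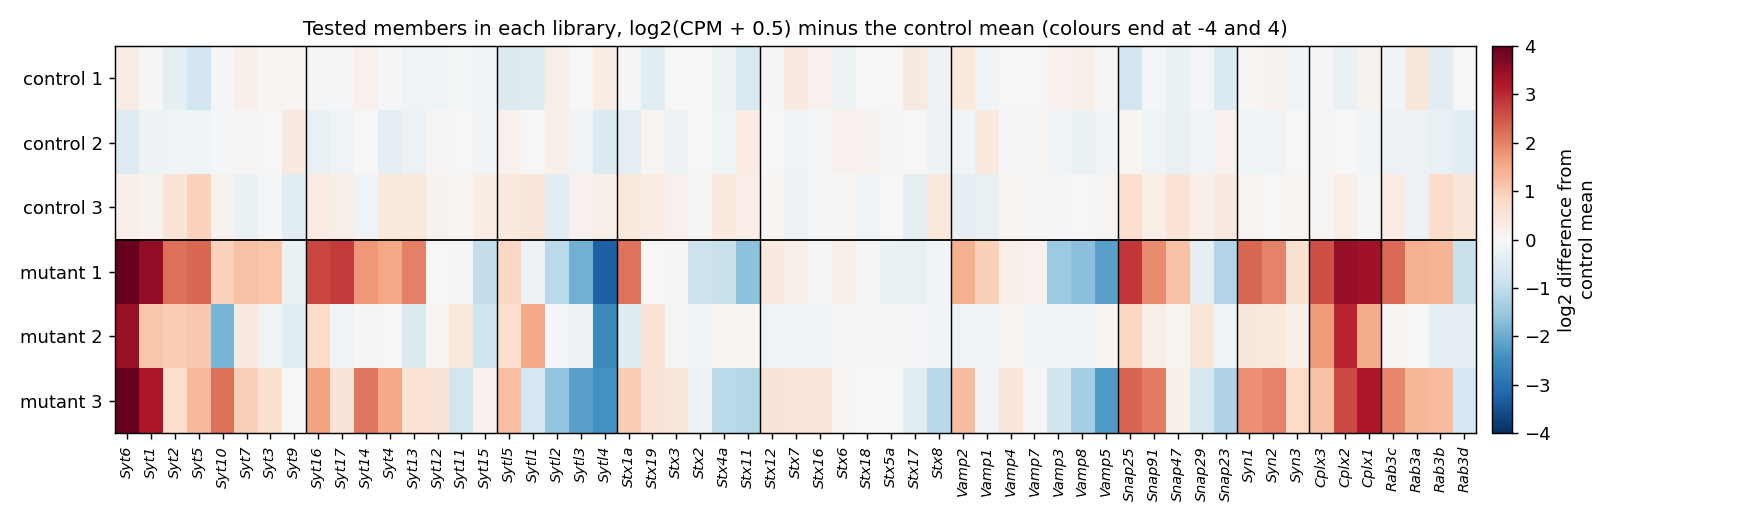
Difference of log2(CPM + 0.5) from the control mean (colour) for the tested members reported here (columns, by role) in the 6 libraries (rows), with colours ending at -4 and 4. Mutant libraries 1 and 3 carry similar patterns, and mutant library 2 is pale except at Syt6, Sytl4, the complexins and a few others.

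Of the 6 libraries, mutant library 2 was the one whose omission added calls. Mutant libraries 1 and 3 lay on the same side of the control mean for 52 of 58 members, and for 38 of these library 2 was nearer to the control mean than both. Neither count was made over all genes, so whether this pattern is particular to the members was not tested. Over all members the median log2 deviation from controls was 0.48 in mutant library 1, 0.02 in library 2 and 0.51 in library 3. Without mutant library 2, 27 of 58 members were called higher, where 13.2% of all genes were. Another 8 of the 58 were called lower, the same share as the 13.8% of all genes. The members called lower in that fit were Sytl2, Sytl3, Sytl4, Snap23, Stx4a, Vamp3, Vamp5 and Vamp8. Snap25, Syn1, Syn2, Snap91 and Rab3c were then higher with edgeR adjusted p of 0.000500 or less. In the same fit Vamp2 reached a log2 fold change of 1.30 (edgeR adjusted p 0.00232) and Vamp3 -1.08 (edgeR adjusted p 0.00727).

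Shares of related genes within a library, computed from counts per kb of exon, do not depend on scaling between libraries. Snap25 made up 76.3%, 77.65% and 82.1% of Snap25 and Snap23 in controls and 98.3%, 88.05% and 97.7% in mutants. All mutant libraries exceeded all controls, by 16.0 percentage points on average. The two-sided exact permutation p was 0.1, the smallest that 3 against 3 libraries allow (0.25 after Benjamini-Hochberg adjustment over 5 shares). Vamp1 and Vamp2 took 38.6% to 47.0% of Vamp1, Vamp2, Vamp3 and Vamp8 in controls and 85.5%, 42.9% and 77.05% in mutants, with library 2 inside the control range (exact permutation p 0.3). Rab3a took 55.1% ± 11.6 of the Rab3 genes in controls and 50.8% ± 5.00 in mutants (SD, n = 3 each, exact permutation p 0.7). Cplx1 took 40.3% ± 6.74 of Cplx1 and Cplx2 in controls and 35.8% ± 16.2 in mutants (SD, n = 3 each, exact permutation p 0.9).

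**Figure D4:**
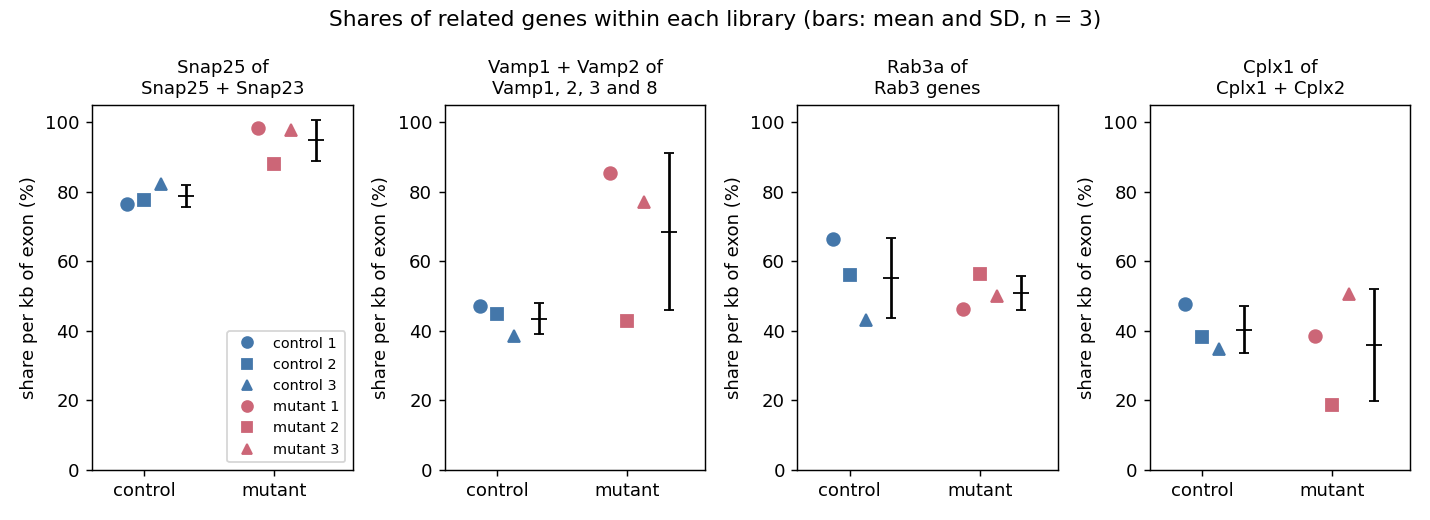
Share in percent (vertical axis, counts per kb of exon) of the named genes within each family, by library; black marks show the mean and SD of 3 libraries. The Snap25 share lies higher in all mutant libraries than in any control, whereas the Rab3a and Cplx1 shares overlap.

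Per kb of exon, the ranking of the members in control nerve placed Snap25 first, at 165 ± 76.7 CPM per kb (SD, n = 3), and Syt11 next at 139 ± 6.70. Those levels do not differ beyond the spread of Snap25. Vamp2 at 83.9 ± 23.4, Vamp3 at 79.7 ± 8.31, Stx4a at 64.9 ± 15.8 and Stx12 at 64.3 ± 2.95 CPM per kb followed, and neighbours in this order lay within their spread. Syt1 stood at 18.7 ± 2.29, Cplx2 at 14.3 ± 2.77 and Cplx1 at 9.48 ± 0.937 CPM per kb. In mutants the means were 702 ± 403 for Snap25, 145 ± 93.3 for Syt1, 121 ± 34.5 for Cplx2 and 71.9 ± 39.3 CPM per kb for Cplx1. Sytl4 went the other way, from 5.24 ± 1.54 to 0.687 ± 0.220 CPM per kb. All 60 members together took 0.3215% to 0.4115% of counts in controls and 0.9395%, 0.448% and 0.838% of counts in mutant libraries 1, 2 and 3.

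Other genes of vesicle release were described from lists that hold none of the members. Over all genes tested, 2.95% were called higher and 0.337% lower. In the list of active zone and priming genes 3 of 18 tested genes rose and 0 fell, with a median log2 fold change of 1.00. Bsn, the scaffold protein bassoon, had 58.2 to 95.1 CPM in controls and 545, 172 and 249.9 CPM in mutants (log2 difference 2.07 ± 0.43 SE, adjusted p 0.0377 by edgeR). Erc2, a scaffold of the active zone, and Unc13a, a priming factor, rose by 2.17 and 1.88 on the log2 scale. Rims2 did not pass (log2 difference 1.48, adjusted p 0.0513 by edgeR). Among 23 SNARE chaperones and regulators 3 rose and 0 fell, with a median of 0.61. They were the tomosyn gene Stxbp5l at 2.27, the SNARE disassembly cofactor Napb at 2.06 and the calcium sensor Doc2b at 2.29.

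Among 21 tested genes of vesicle membrane proteins and transmitter carriers 2 rose and 0 fell, where 2.95% and 0.337% of all genes did. The median log2 fold change of the list was 1.05. Sv2c, a vesicle protein of the basal ganglia, had 3.81 to 5.93 CPM in controls and 76.9, 23.6 and 71.2 CPM in mutants (log2 difference 3.66 ± 0.47 SE, adjusted p 0.00613 by edgeR). Synpr rose by 3.61 on the log2 scale. Slc17a7, the vesicular glutamate carrier of cortical neurons, did not pass. It had 0.249 to 0.644 CPM in controls but 139.6, 0.0756 and 21.6 CPM in mutants, so that libraries 1 and 3 stood above and library 2 below the controls. Of the 5 cortical neuron markers, Neurod6 and Neurod2 were at 0 counts in mutant library 2, Neurod6 also in control libraries 1 and 3, and the list summed to 7.73 to 14.5 CPM in controls and 145, 8.69 and 26.9 CPM in mutants. Endocytosis genes (25 tested, median 0.38), other SNAREs (12 tested, median 0.09) and Rab27 with the exocyst (13 tested, median 0.09) had 0 genes called by edgeR. In these lists 6, 1 and 1 genes had an unadjusted p under 0.05, where 19.2% of all genes did. Dnm1, the neuronal dynamin, had a log2 fold change of 1.79 (edgeR adjusted p 0.0635).

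**Figure D5:**
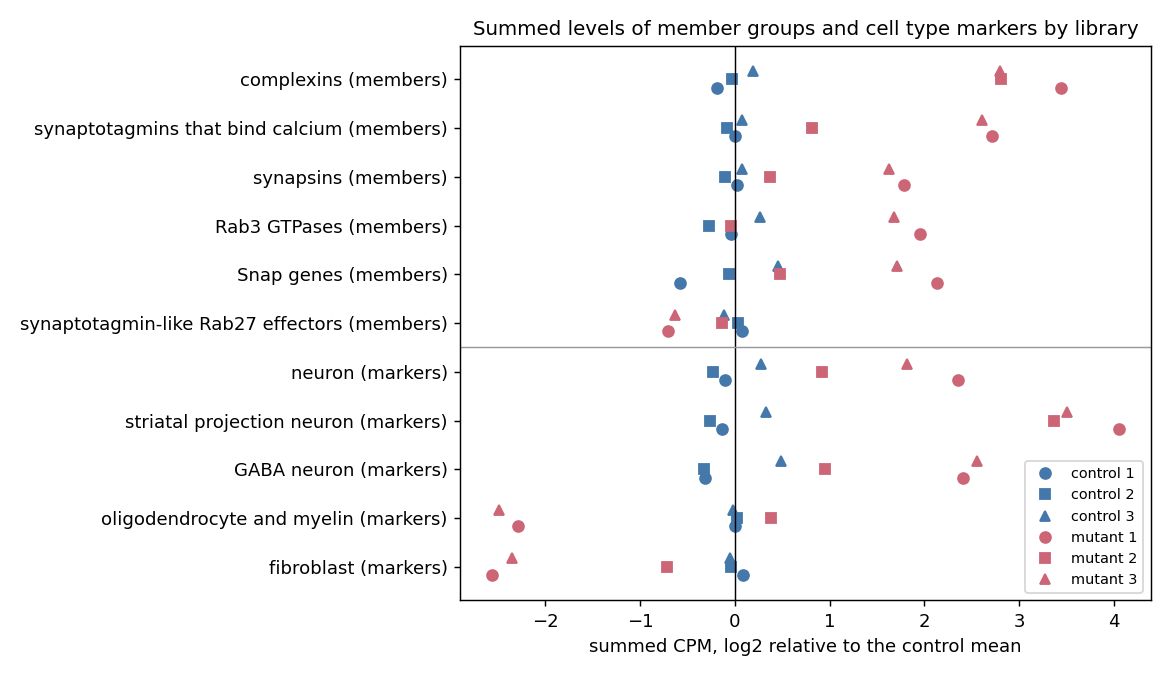
Summed CPM of 6 member groups (above the line) and 5 marker lists (below), as log2 relative to the control mean (horizontal axis), 1 point per library. Complexins, whose sum is mostly Cplx2, are at 3.44, 2.81 and 2.80 in mutant libraries 1, 2 and 3. Striatal markers are at 4.06, 3.37 and 3.50, while synapsins and Rab3 genes drop toward 0 in library 2.

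Member groups and marker lists could be set side by side by library. Relative to the control mean, the log2 sums of complexins in mutant libraries 1, 2 and 3 stood at 3.44, 2.81 and 2.80, and striatal projection neuron markers at 4.06, 3.37 and 3.50. Most of the complexin sum was Cplx2, with 581 of 640 CPM in mutant library 2. Cplx1 alone, as log2(CPM + 0.5), lay 3.35, 1.47 and 3.23 above the control mean, so it dropped in library 2. Calcium-binding synaptotagmins stood at 2.71, 0.81 and 2.61, and GABA neuron markers at 2.41, 0.95 and 2.55. Within the synaptotagmin sum, as log2(CPM + 0.5), Syt1 lay 3.55, 1.11 and 3.23 above the control mean and Syt6 4.73, 3.46 and 5.66. Synapsins stood at 1.79, 0.37 and 1.63, Rab3 genes at 1.96, -0.04 and 1.68, and neuron markers at 2.36, 0.92 and 1.82. Camk2a gave 599 of the 1521 CPM of neuron markers in mutant library 2. In that library Stmn2 (38.4 CPM) and Elavl4 (16.1 CPM) lay below all controls. Tubb3 (52.7 CPM) and Map2 (313 CPM) lay inside the control range there, and 7 of the 11 neuron markers were above all controls in every mutant library. Synaptotagmin-like genes stood at -0.70, -0.13 and -0.63, whereas fibroblast markers were at -2.57, -0.71 and -2.35 and myelin markers at -2.29, 0.38 and -2.49. In mutant library 2 Sytl2 gave 73.6 of the 124 CPM of the synaptotagmin-like sum. Sytl4 alone, as log2(CPM + 0.5), lay at -3.27, -2.58 and -2.43, so it stayed far below controls in library 2. All 9 striatal markers were called higher, as were 4 of 11 neuron markers and 2 of 4 GABA neuron markers, Gad1 and Gad2. The share called higher over all genes tested was 2.95%. How far these cell type transcripts account for the members' values was not tested.

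The calls differed between tools. DESeq2 called 14 members higher and 1 lower, where it called 6.45% and 2.72% of all genes with an adjusted p, and added Syt5, Syt14, Syt16, Rab3c, Snap25, Snap91, Syn1 and Syn2 to the 6. Without a filter on low counts edgeR called 11 members higher and 1 lower, against 3.49% and 0.585% of all genes. With Xist (log2 CPM) added to the model edgeR called 0 members and 0 genes. In that fit 15 members had an unadjusted p under 0.05, against 24 (41.4%) without the covariate, while 7.96% of all genes did, against 19.2% without it. The 7 called members kept their sign there, with log2 fold changes of 3.14 for Cplx2, 5.48 for Syt6, 3.15 for Syt1 and -2.39 for Sytl4. High Xist was shared by all 3 mutant libraries and 1 control.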

How the data were processed

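RNA from optic nerve, amplified before library preparation per the labels, was measured in 6 libraries, 3 per group. Deposited values are raw counts of fragments per gene. The authors counted them with featureCounts 1.4.6-p4 over exons of the UCSC mm10 genes per the file headers, ignoring strand, and TopHat is named in the submitters' processing notes. Replicate numbers follow the order of deposit. Counts were tested across all genes with edgeR 4.0.16 (R 4.3.3), using TMM scaling, filterByExpr with a minimum count of 10, quasi-likelihood F tests and Benjamini-Hochberg adjustment over 16315 genes. An SE is the absolute log2 fold change over the root of F. The scripts were tested on simulated data. CPM use TMM-scaled totals, and counting intervals and limits cover counting error only. Shares were compared by exact permutation tests. Alternatives used DESeq2 1.42.0, limma-voom (limma 3.58.1), other scalings and filters, Xist as a covariate, and the omission of each library. The members, gene lists and markers were chosen with earlier results of these data known. Named were the called members (1 is not reported here, nor are results that need it), up to 4 further members per role group by smallest p, the most abundant per kb, the genes in the shares given, and up to 4 genes per pathway list. Rcvrn, Gnat1, Xist, the remaining members and other markers were named after their values were seen. Exons of Rab3a, Rab3b, Snap29, Syn1, Syt6, Syt12 and Stx18 overlap other genes, and their counts are uncertain to that extent.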

Additional observations from a re-analysis of the deposited data

How the results depend on the processing

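By edgeR 537 genes, 6 members higher and 1 member lower were called. With no filter on low counts these became 870, 11 and 1, and with DESeq2 1656, 14 and 1. With Xist as a covariate they became 0, 0 and 0, the cause of which was not tested. Leaving out each library in turn gave 51 to 4551 genes, 1 to 27 members higher and 0 to 8 lower, the lowest without control library 1 and the highest without mutant library 2. Other scalings, limma-voom and a minimum count of 50 gave 5 or 6 members higher and 1 lower. The log2 fold changes of uncalled members that turned sign ranged, over the omission of each library, from -0.007611 to 0.27 for Stx3, -0.35 to 0.20 for Syt11, -0.79 to 1.04 for Sytl1, -0.17 to 0.54 for Vamp1, -0.50 to 0.12 for Snap29, -0.05 to 0.29 for Stx16, -0.09 to 0.04 for Stx18 and -0.08 to 0.07 for Vamp7. Vamp7 also turned sign with upper quartile scaling and total counts, and Vamp7, Snap29 and Stx6 with Xist in the model. The difference in the Rab3a share of Rab3 genes ranged from -10.3 to 1.29 percentage points and that in the Cplx1 share of Cplx1 and Cplx2 from -11.8 to 4.18. No paired analysis was possible because the labels carry no replicate numbers. Members of low count, such as Cplx3, Cplx4 and Syt8, are limited by depth.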
